A study of Saccharomyces cerevisiae with 8 samples.

Results

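The genes described here are 32 genes of budding yeast that make ergosterol, store it or control its synthesis. They were taken by name for their place in the pathway, and all 32 were found among the 6120 genes of the count table and passed the filter that left 5909 genes for testing. Messenger RNA was sequenced in 4 strains of the W303a background, with 2 libraries per strain, from cultures in mid-log growth in SC medium at 30°C. W303a is the unmodified laboratory strain, of mating type a. The *ubc9-6* strain carries, in place of *UBC9*, the mutant allele *ubc9-1* repeated in tandem with a *TRP1* marker. *UBC9* encodes the SUMO conjugating enzyme. The Tfg1-HA strain carries HA-tagged Tfg1, a subunit of the transcription factor TFIIF, made at its own locus with the *TRP1* gene of *Kluyveromyces lactis* as marker. The Tfg1-K60,61R-HA strain carries the same tag and marker, the exchange of a pair of neighbouring lysines of Tfg1 for arginine, and a further unintended amino acid change in Tfg1. All 3 modified strains carry a *TRP1* marker that W303a lacks, so that the effect of the marker and of each allele against W303a cannot be told apart. Nothing in the sources used here says whether the 2 libraries of a strain came from separate cultures, so the spread between them may be technical.

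Ergosterol is the main sterol of yeast membranes. Its synthesis starts from acetyl-CoA, runs through mevalonate and farnesyl diphosphate to squalene, closes the sterol rings in lanosterol, and ends with a series of demethylations, desaturations and reductions in the endoplasmic reticulum. Several of the late enzymes use molecular oxygen and heme. When sterols fall short, the zinc cluster factors Upc2 and Ecm22 activate many *ERG* genes through sterol response elements in their promoters. A related element, AR1, lies in promoters of genes that are switched on without oxygen.

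The 32 genes lay on 11 chromosomes and each had 1 exon. Windows from 250 bases before to 50 bases after the start codon were read from the R64 reference (sacCer3), in which all 32 genes had the coordinates of the count table. Letters of 4 known elements were searched on both strands. The core of the sterol response element, TCGTATA, was in 3 of 32 windows (9.38%) and in 4.15% of the windows of all genes. The letters TCGTTNAG, written here as AR1-like, were in 9 of 32 windows (28.1%) and in 2.71% of all windows. The first part of the site of the heme-dependent activator Hap1, CGGNNNTA, was in 14 of 32 (43.8%) and in 22.2% of all, and ATTGTTC, the core of the site of the hypoxic repressor Rox1, was in 8 of 32 (25.0%) and in 7.73% of all. With only the bases before the start codon these shares were 9.38% against 3.82%, 28.1% against 2.3%, 37.5% against 18.4% and 21.9% against 6.25%. A match of letters is a description and was not tested as a binding site. The AR1-like matches are shown because this was the element that the windows of these genes held most often relative to all genes, and the sterol response element matches because it is the element known for the pathway. Each line reads 5′ to 3′ on the strand of the gene, with the match in capitals. Where the capitals begin with CTAA or TATA the match is on the opposite strand.
*ERG4* AR1-like, chrVII:472628-472657: tcgtttaataaCTAAACGAgactcatttct
*ERG7* AR1-like, chrVIII:238905-238934: ttcgtttataaTCGTTTAGgtgaaaagttt
*ERG9* AR1-like, chrVIII:484694-484723: gggtttagtgcCTAAACGAgcagcgagaac
*ERG11* AR1-like, chrVIII:121799-121828: gataagcagtaTCGTTCAGcgtgtgtattt
*ERG20* AR1-like, chrX:104811-104840: tctcgtcggttCTAAACGAaacgccttgtt
*MVD1* AR1-like, chrXIV:701784-701813: gccgaaatggcTCGTTTAGccttttctcga
*NCP1* AR1-like, chrVIII:190301-190330: cacgtgtgtgcTCGTTTAGcggtcaacccg
*CYB5* AR1-like, chrXIV:417378-417407: ctcaaaaatttTCGTTCAGgcttcctcgtt
*ARE1* AR1-like, chrIII:211764-211793: cgtggttggacTCGTTTAGcgaacaatagc
*ERG2* sterol response element, chrXIII:667341-667369: aaccacggcccTCGTATAagccgcaagga
*ERG8* sterol response element, chrXIII:712153-712181: atgcgtttttcTATACGAgatctaaaagg
*ERG13* sterol response element, first match, chrXIII:20732-20760: cggaataagctTCGTATAtacaatagaaa
*ERG13* sterol response element, second match, chrXIII:20619-20647: gggctattaatTATACGAgtgtgttgaaa

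Levels per length are given as RPKM, the count divided by the length of the gene and by the size of the library after TMM scaling, which corrects that size for composition. In W303a the highest were *ERG20*, the farnesyl diphosphate synthase, at 913.4 and 968.7, and *ERG11*, the lanosterol demethylase that azole antifungals block, at 931.9 and 934. The spread between the libraries of *ERG20* was larger than the gap between these genes. *CYB5* (cytochrome b5, an electron donor) at 713.9 and 771, and *ERG25* (the oxidase that removes methyl groups) at 712.5 and 748, came next and overlapped. All of the 22 enzymes on the path to ergosterol except *HMG2*, at 28.72 and 29.38, exceeded 100 RPKM in both W303a libraries. The regulators were scarce, with *ECM22* at 15.73 and 16.36 and *UPC2* at 9.433 and 9.828, and *HES1* was lowest at 0.9075 and 0.95. The order of the levels was led by the same 4 genes in the mean of every strain, as the plot of levels shows.

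**Figure D1:**
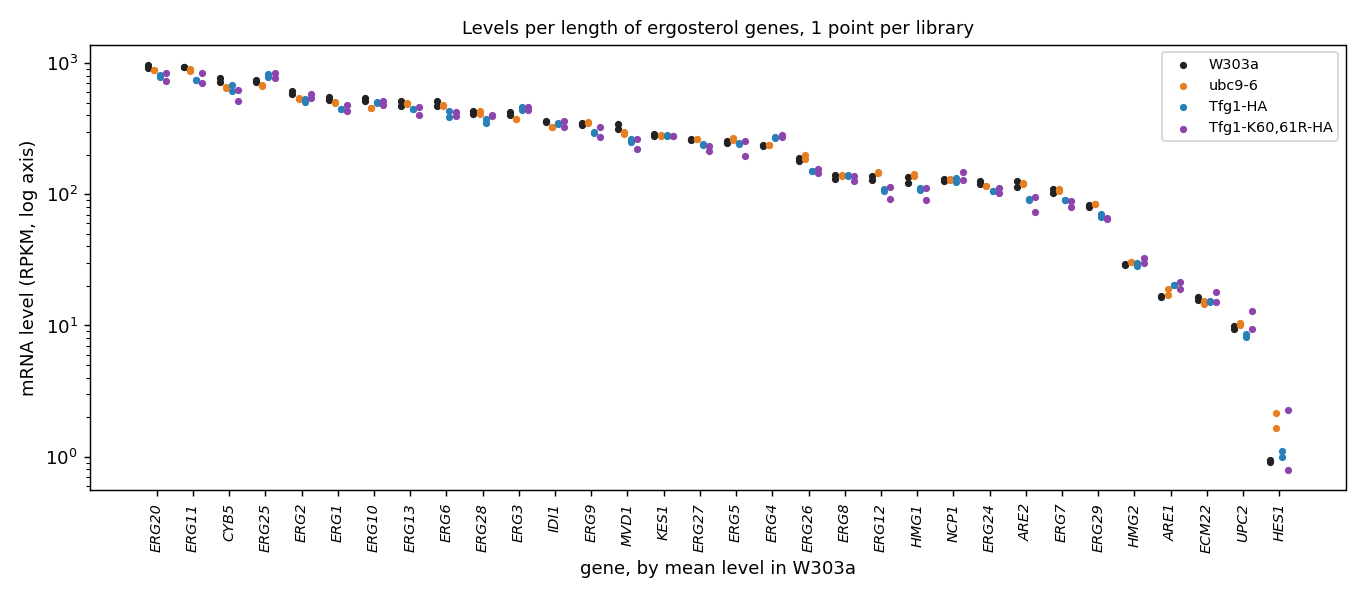
Messenger RNA level per length (RPKM, logarithmic axis) of the 32 genes, ordered by their mean in W303a, with 1 point per library and a colour per strain. The levels run from 0.9288 (*HES1*) to 941 (*ERG20*) in the W303a means, and the strains lie close together at most genes.

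The libraries held between 26674458 and 34614232 counts, of which the 32 genes took 0.985% to 1.19%. In CPM, the same scaled count without the division by length, the *UBC9* gene was at 183.5 and 189.5 in *ubc9-6* and at 74.08 to 83.23 in the other libraries, and *TFG1* was at 160.4 to 200.6 throughout. These counts do not read the point changes themselves. The transcripts *MFA1*, *MFA2* and *STE2* of mating type a were at 63.46 CPM or more in every library, and *STE3* and the alpha pheromone genes were at 5.952 CPM or less.

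One library stood apart in genes tied to oxygen and sterol supply. In Tfg1-K60,61R-HA replicate 1, *TIR1*, a cell wall mannoprotein gene of anaerobic growth, was at 330.2 CPM, against 1.454 CPM in replicate 2 and 1.063 to 2.564 CPM in the other strains. *DAN1*, another such gene, was at 55.51 CPM against 0.2679 CPM in replicate 2 and 0.1771 to 0.7661 CPM in the other strains. Of the 6 anaerobic cell wall genes measured, all but *DAN4* were above the 7 other libraries there, and their summed level was 519.6 CPM against 45.04 to 58.34 CPM in the others. *HEM13*, a heme synthesis gene that is raised under low oxygen, was at 226.1 CPM against 67.8 CPM in replicate 2. These genes outside the list were picked for naming after their values were seen.

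The ergosterol genes moved in that library as well. In Tfg1-K60,61R-HA replicate 1, 18 of the 32 genes were below all 7 other libraries and 6 were above them, where 21.2% of all genes were below and 21.4% above. The genes above were *UPC2*, *ECM22*, *HES1*, *ARE1*, *NCP1* and *HMG2*. *UPC2* was at 35.31 CPM there and at 25.6 CPM in replicate 2, and *HES1* was at 2.94 and 1.033 CPM. The genes below included most of the mevalonate and squalene steps, with *ARE2* at 141.3 CPM against 184.4, *ERG5* at 318.1 against 412.2, *HMG1* at 286.2 against 355.1 and *CYB5* at 187.3 against 227.8. The replicates of that strain differed with an SD over the 32 genes of 0.332 on the log2 scale, where the other strains gave 0.0511 to 0.0839. Over all genes this SD was also widest in that strain, at 0.292 against 0.139 to 0.175 in the others. The value over the 32 genes was widened by *HES1*, which differed by 1.454 at counts of 93 and 27. The next largest difference was 0.463, at *UPC2*. The library enters the shared estimate of spread, so each comparison is given with and without it. The part of the anaerobic genes in these differences was not tested.

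**Figure D2:**
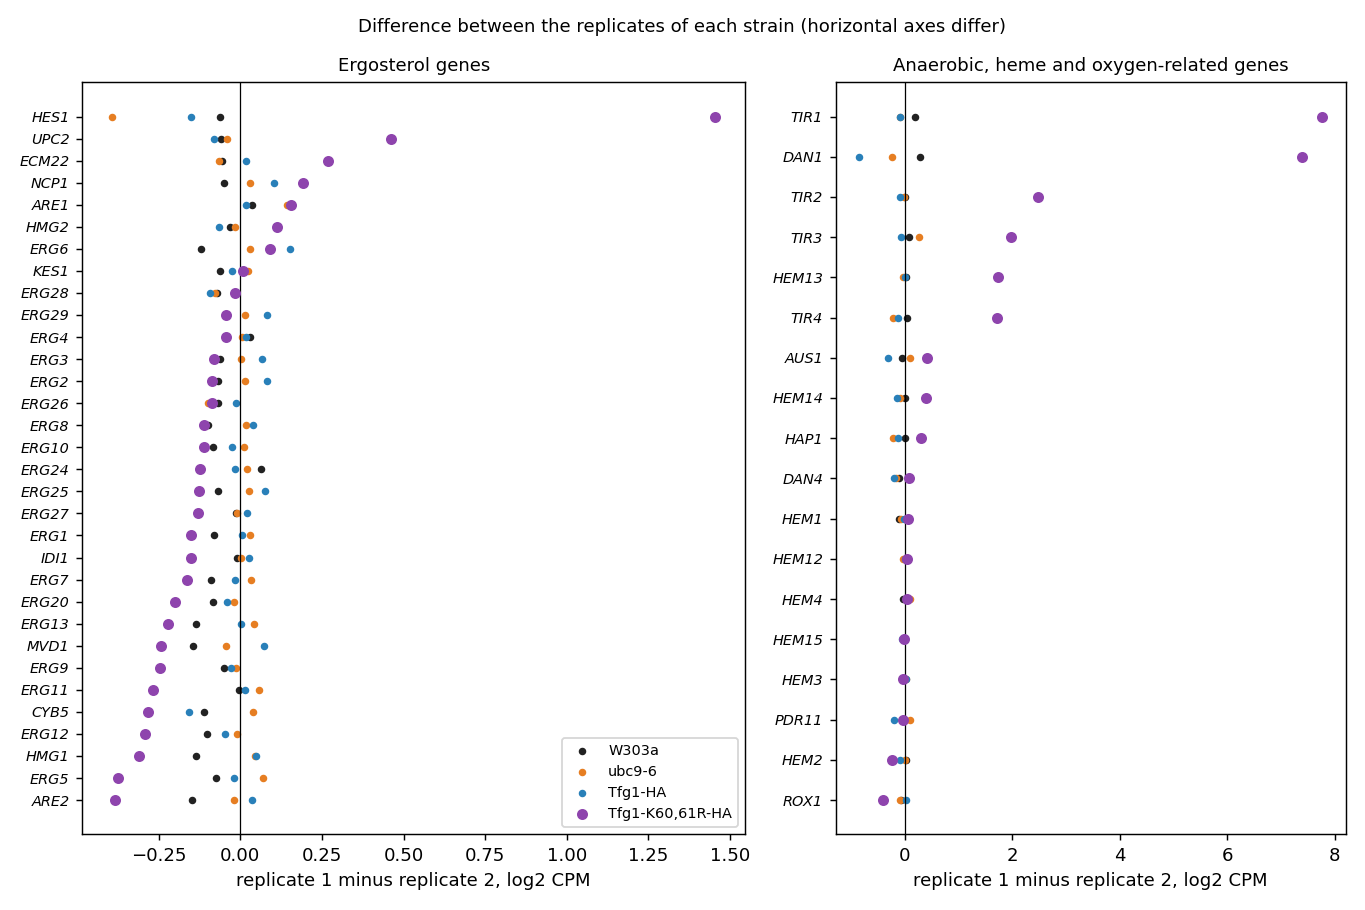
Difference between replicate 1 and replicate 2 in log2 CPM for each strain, for the 32 ergosterol genes (left) and for anaerobic, heme and oxygen-related genes (right, wider axis). Each point is 1 strain. Tfg1-K60,61R-HA (large points) runs from -0.384 at *ARE2* to 1.454 at *HES1* on the left and reaches 7.766 at *TIR1* on the right.

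The first comparison asked how lower SUMO conjugation bears on these genes. In *ubc9-6* against W303a, *ERG10*, which encodes the thiolase that opens the mevalonate pathway, was the only one of the 32 genes that passed the test, and it fell slightly. It was at 610.5 and 647.4 CPM in W303a and at 548.5 and 544.8 CPM in *ubc9-6*, so that the strains did not overlap. The log2 fold change was -0.20 ± 0.05 (SE), with adjusted p = 0.0263 in edgeR's quasi-likelihood test over all genes. No member was called higher, where 11.4% of all genes were, and 1 of 32 (3.12%) was called lower, where 9.36% of all genes were. The median log2 fold change was 0.00 over the 32 genes and over all genes. Both *ubc9-6* libraries lay above both W303a libraries for 10 members (all genes 35.0%) and below them for 12 (all genes 36.4%). The 95% interval of the fold change lay within 1.5-fold in either direction for 31 of the 32 genes.

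The exception in the width of its interval was *HES1*, one of the oxysterol-binding protein genes that move sterols between membranes. Its raw counts were 31 and 42 in W303a and 70 and 96 in *ubc9-6*, or 1.184 and 1.24 CPM against 2.14 and 2.829 CPM. Both *ubc9-6* libraries were above both of W303a at this low level. The log2 fold change was 1.03 (95% interval 0.11 to 1.95), which did not pass the test (adjusted p = 0.101). Its close relative *KES1* was at 362.9 and 378.5 CPM in W303a and at 368.4 and 362.6 CPM in *ubc9-6*. The ratio of *KES1* to *HES1* per length was 306.5 and 305.3 in W303a and 172.2 and 128.2 in *ubc9-6*. The reading frames of this pair were 71.9% identical over 1104 bases, and no member had a near-identical copy in the genome.

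Without the Tfg1-K60,61R-HA library that stood apart, the same comparison called 2 members higher and 6 lower, beside 16.3% and 16.1% of all genes. *HES1* was then called higher (log2 1.03, adjusted p = 0.00709), as was *ERG12*, the mevalonate kinase gene (log2 0.14, adjusted p = 0.0498). *ERG10* was joined among the lower genes by *ERG2* and *ERG3* (a sterol isomerase and a desaturase), *MVD1* and *IDI1* (the last steps before farnesyl diphosphate synthesis) and *CYB5*, each with log2 between -0.13 and -0.20. In contrast, *ERG10* was not called in any of the 4 fits that left out a W303a or a *ubc9-6* library, which called 1.32% to 4.0% of all genes lower. The shares of members called were below those of all genes with the library and, for higher calls, without it.

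The second comparison set the tagged strain against its parent, and here many ergosterol genes fell. In Tfg1-HA against W303a, 14 of the 32 genes (43.8%) were called lower, where 21.5% of all genes were, and 2 (6.25%) were called higher, where 21.5% of all genes were. The median log2 fold change was -0.20 over the 32 genes and 0.00 over all genes. Both Tfg1-HA libraries lay below both W303a libraries for 22 members (all genes 39.3%) and above them for 5 (all genes 38.0%). The sum of the 32 genes was 11550 and 12120 CPM in W303a, 10710 and 10600 CPM in Tfg1-HA, and 11490 and 11360 CPM in *ubc9-6*.

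Of the 9 genes of the mevalonate steps, 3 were called lower (all genes 21.5%) and none higher (all genes 21.5%). *MVD1*, the mevalonate diphosphate decarboxylase gene, was at 371.3 and 410.3 CPM in W303a and at 311.6 and 296.4 CPM in Tfg1-HA (log2 -0.36 ± 0.08, adjusted p = 0.00792). *ERG12* was at 170.4 and 182.8 CPM in W303a and at 140.7 and 145.2 CPM in Tfg1-HA (log2 -0.31, adjusted p = 0.0202), and *ERG20* fell with log2 -0.23. Both Tfg1-HA libraries lay below both W303a libraries for these 3, as for 7 of the 9 genes in all and for 39.3% of all genes. *ERG13* (HMG-CoA synthase), *ERG8* (phosphomevalonate kinase), *IDI1*, *ERG10* and the HMG-CoA reductase gene *HMG2* had log2 values between -0.14 and 0.03 and were not called. The other reductase gene, *HMG1*, was at log2 -0.23, close to *ERG20*, and also not called (adjusted p = 0.077).

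All 3 genes that turn farnesyl diphosphate into lanosterol were called lower, where 21.5% of all genes were. *ERG1*, the squalene epoxidase gene, was at 777.9 and 823.2 CPM in W303a and at 665.4 and 662.7 CPM in Tfg1-HA (log2 -0.27, adjusted p = 0.00513). *ERG7*, lanosterol synthase, and *ERG9*, squalene synthase, gave log2 -0.22 and -0.21 (adjusted p = 0.0181 and 0.0433). Both calls depended on single libraries, as given below.

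The 10 enzymes from lanosterol to ergosterol moved apart, with 5 lower (all genes 21.5%), 1 higher (all genes 21.5%) and 4 not called. *ERG11* was at 1485 and 1488 CPM in W303a and at 1186 and 1175 CPM in Tfg1-HA (log2 -0.33, adjusted p = 0.00821). *ERG26*, a sterol dehydrogenase of the demethylation complex, was at 188.9 and 198.1 CPM against 157.7 and 159.1 CPM (log2 -0.29, adjusted p = 0.00337). The other genes that fell were *ERG6* (the sterol methyltransferase), *ERG24* (a reductase that follows Erg11) and *ERG2*, with log2 from -0.25 to -0.20. *ERG4*, the reductase of the last step, rose from 338.3 and 331.2 CPM to 386.9 and 382 CPM (log2 0.20, adjusted p = 0.00486). *ERG25* and *ERG3* were also above W303a in both libraries (log2 0.13 each), without passing the test (adjusted p = 0.089 and 0.0601). *ERG27* (log2 -0.13) and *ERG5* (log2 -0.03) were not called.

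Among the partner proteins, *ERG28*, a scaffold of the demethylation enzymes, and *ERG29*, which acts with the methyl sterol oxidase, fell with log2 -0.22 and -0.23. *NCP1*, the reductase that feeds electrons to Erg11, stayed uncalled at log2 0.02 and *CYB5* at log2 -0.20 (adjusted p = 0.107). The 2 sterol acyltransferases that make steryl esters for storage went opposite ways. *ARE2*, the major one per length, was at 219.1 and 242.9 CPM in W303a and at 177.9 and 173.5 CPM in Tfg1-HA (log2 -0.40, adjusted p = 0.0184), and *ARE1* was at 30.95 and 30.17 CPM against 37.38 and 36.96 CPM (log2 0.28, adjusted p = 0.0139). The ratio of *ARE2* to *ARE1* per length thus went from 6.728 and 7.652 in W303a to 4.521 and 4.461 in Tfg1-HA, beside 6.306 and 7.062 in *ubc9-6*. *ARE1* shares 298 bases with *YCR050C* on the counted annotation, and the counts ignore strand and leave out reads that overlap several genes. Its value is therefore uncertain. Its level per length reads low and the ratio of *ARE2* to *ARE1* reads high, by an amount not measured here. The regulators *UPC2* and *ECM22* and the pair *HES1* and *KES1* were not called.

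**Figure D3:**
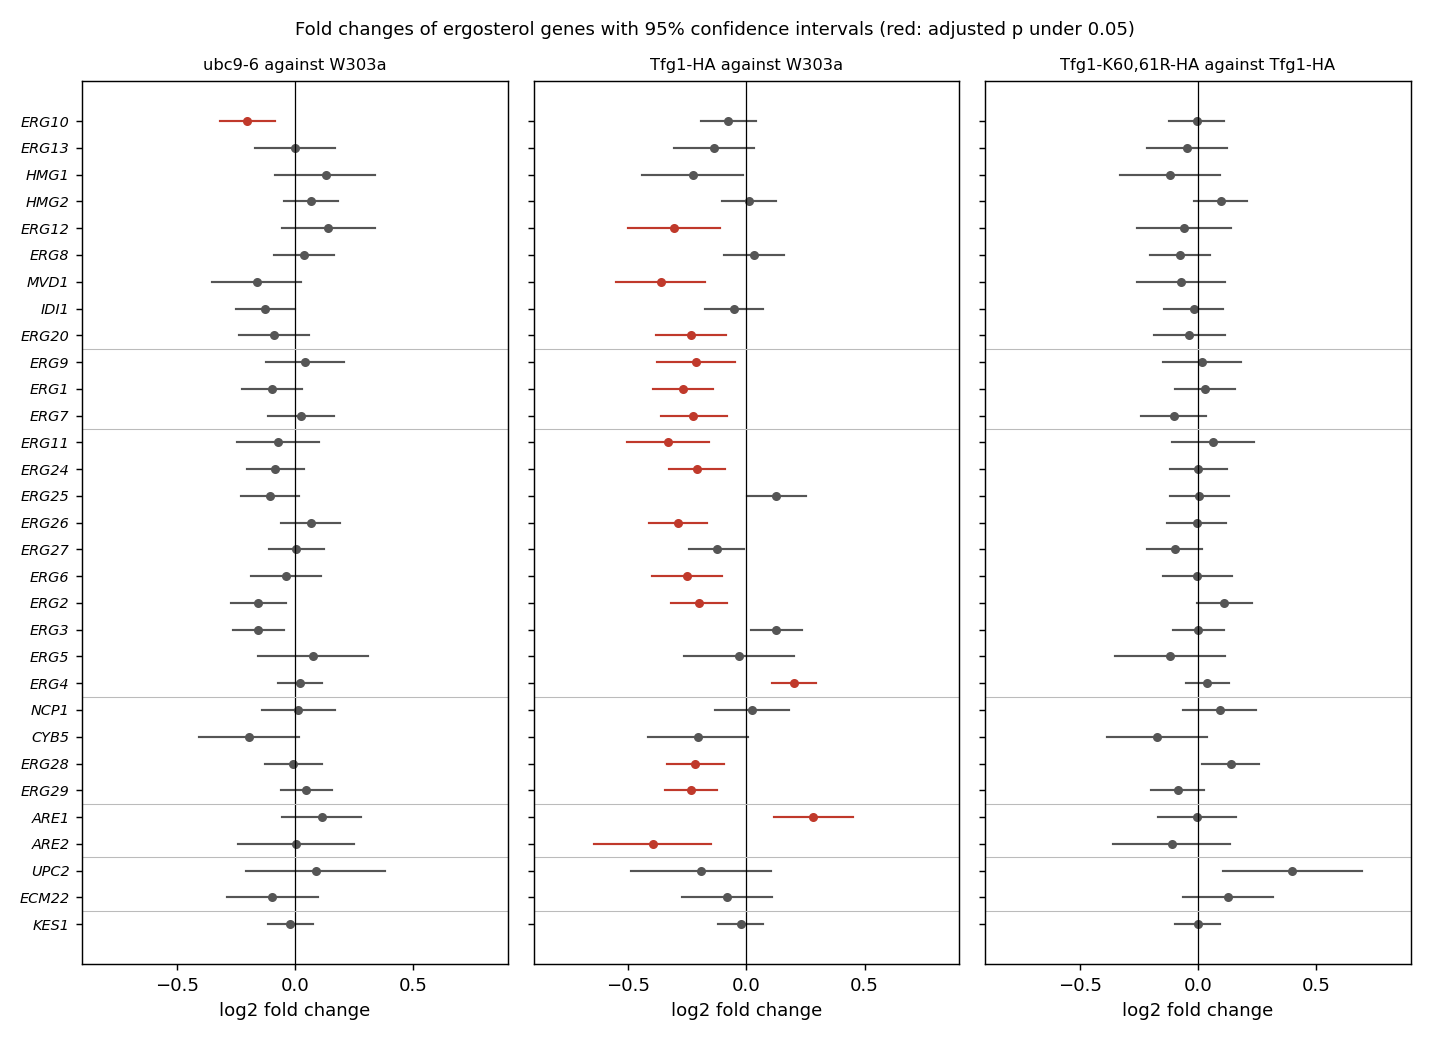
Log2 fold change (point) and 95% confidence interval (line) of 31 ergosterol genes in 3 comparisons, in pathway order from *ERG10* to *KES1*, with red for adjusted p under 0.05 in the fit of all 8 libraries. *HES1* is left out because its intervals are wider than the axis. In *ubc9-6* only *ERG10* is red, in Tfg1-HA 14 genes are red below 0 and 2 above, and in Tfg1-K60,61R-HA against Tfg1-HA none is.

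The fall in Tfg1-HA depended on single libraries for many genes. The number called lower was 3 (9.38%) without W303a replicate 2, beside 13.1% of all genes, and 4 (12.5%) without Tfg1-HA replicate 2, beside 13.5%, so that in these fits the members were called lower no more often than all genes. It was 7 (21.9%) without Tfg1-HA replicate 1, beside 15.8%, and 12 (37.5%) without W303a replicate 1, beside 14.5%. Of the called genes, *ERG26* and *ERG4* were the 2 genes called in all 4 of these fits, while *ERG9* and *ARE1* were called in none. W303a replicate 2 was above replicate 1 at 29 of the 32 genes, by a median of 0.068 on the log2 scale, where 48% of all genes were. It was above all other libraries at 14 of the 32 genes, where 15.7% of all genes were. The median log2 fold change of the 32 genes stayed between -0.145 and -0.212 in the 4 fits without 1 library. Without the Tfg1-K60,61R-HA library that stood apart, 4 members were called higher and 19 lower, beside 25.7% and 25.3% of all genes, and all 16 calls of the full fit were among them. The added genes were *ERG3* and *ERG25* above, and *ERG13*, *ERG27*, *HMG1*, *CYB5* and *UPC2* below.

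The direct contrast of *ubc9-6* with Tfg1-HA tests the difference between these strains, and it was added after the data were seen. It called 11 of the 32 genes higher in *ubc9-6* (all genes 19.7%) and 3 lower (all genes 19.2%). *ERG12*, at 194.2 and 195.5 CPM in *ubc9-6*, differed most among the called genes, by log2 0.45 ± 0.09, followed by *ARE2* (0.40), *HMG1* (0.36) and *ERG26* (0.35). The other higher genes were *ERG1*, *ERG6*, *ERG7*, *ERG9*, *ERG11*, *ERG28* and *ERG29*. *ERG3* (log2 -0.28), *ERG25* (-0.23) and *ERG4* (-0.18) were lower in *ubc9-6*. Without the library that stood apart, the counts were 17 and 5, beside 23.2% and 24.1% of all genes, and each fit without a *ubc9-6* or Tfg1-HA library called 4 higher (12.5%) and 1 to 3 lower, beside 11.1% to 14.0% of all genes higher and 10.8% to 14.4% lower. *ERG3*, *ERG12*, *ERG26* and *ERG29* were called in all 4 of those fits.

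The comparison of Tfg1-K60,61R-HA with Tfg1-HA asked what loss of these Tfg1 lysines adds to the tag. None of the 32 genes was called, and edgeR's quasi-likelihood test called 0% of all genes higher and 0% lower. At an unadjusted p under 0.05 there were 2 of the 32 genes, *UPC2* and *ERG28*, and 572 of all genes. The edgeR likelihood ratio test called 3 genes and DESeq2 called 34 higher and 2 lower, with no member among them, although DESeq2 gave an adjusted p to only 14 of the 32. Both Tfg1-K60,61R-HA libraries lay above both Tfg1-HA libraries for 5 members (all genes 18.4%) and below them for 4 (all genes 17.4%). The log2 fold changes ran from -0.17 (*CYB5*) to 0.56 (*HES1*), and the 95% interval lay within 1.5-fold for 30 of the 32 genes, the others being *UPC2* and *HES1*.

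These values rested on libraries that disagreed. Without replicate 1 of Tfg1-K60,61R-HA no member was called and the log2 values other than that of *HES1* ran from -0.09 to 0.19, with 0% of all genes called in either direction. Without replicate 2, *UPC2* (0.61), *ECM22* (0.26) and *HES1* (1.09) were called higher, and *ERG5* (-0.32), *CYB5* (-0.32), *ARE2* (-0.32) and *HMG1* (-0.28) were called lower, beside 5.17% and 2.34% of all genes. *HES1* itself turned from log2 0.56 with both libraries to -0.41 without replicate 1. Each of these 2 fits has a single library of that strain, which is assumed to vary like the other groups. All 7 were called with the library in which the anaerobic cell wall genes summed to 519.6 CPM. The map of the libraries shows the same division.

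**Figure D4:**
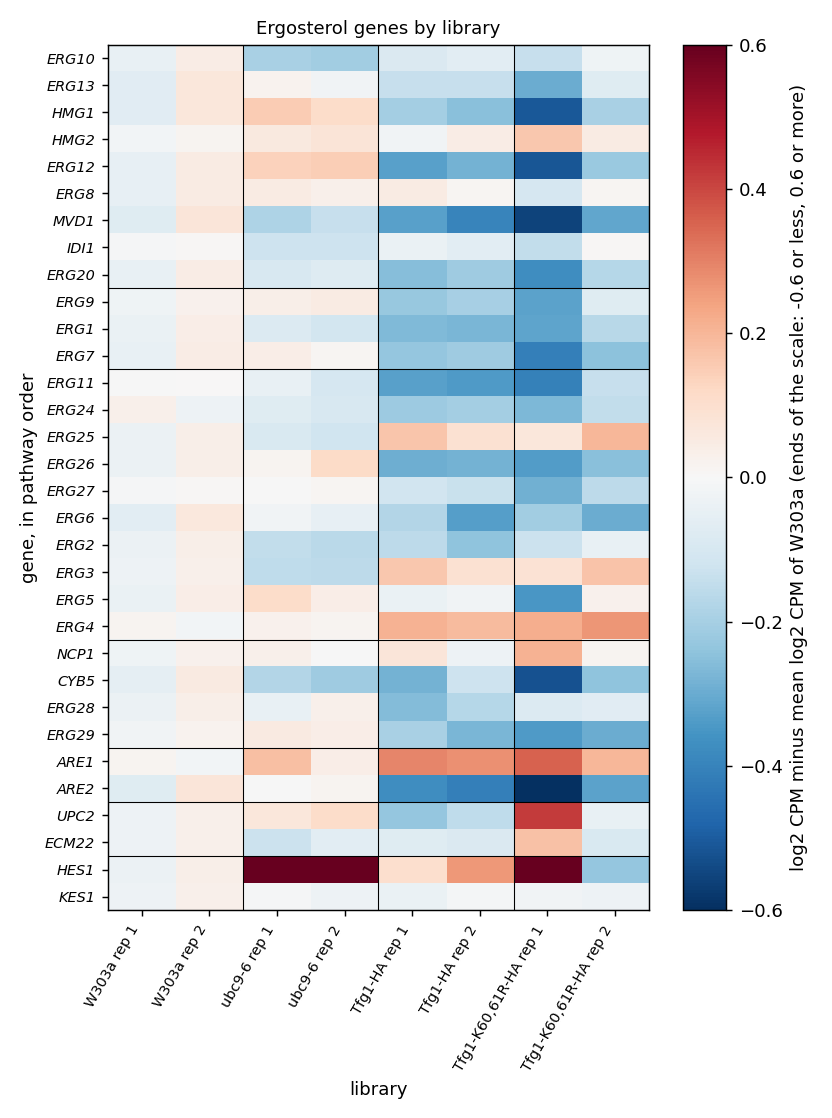
Log2 CPM of each of the 32 genes in each of the 8 libraries, minus the mean log2 CPM of W303a (colour, red above and blue below, ends of the scale at 0.6 in either direction), in pathway order with lines between the role groups. Tfg1-K60,61R-HA replicate 1 is the darkest column, with *ARE2*, *MVD1* and *CYB5* among the lowest and *HES1* and *UPC2* among the highest.

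Against W303a, with which it shares the control libraries of the comparisons above, Tfg1-K60,61R-HA had 14 members called lower (all genes 24.5%) and 2 called higher (all genes 24.9%). This contrast was also added after the data were seen. The lower genes were *ERG1*, *ERG6*, *ERG7*, *ERG11*, *ERG12*, *ERG20*, *ERG24*, *ERG26*, *ERG27*, *ERG29*, *HMG1*, *MVD1*, *CYB5* and *ARE2*, and the higher ones were *ERG4* and *ARE1*. Without replicate 1 of that strain there were 14 lower, the same genes, and 3 higher, *ERG3*, *ERG4* and *ERG25*, beside 20.9% and 22.0% of all genes. Without W303a replicate 2 there were 7 lower and 1 higher, beside 16.1% and 16.9% of all genes. Side by side, *MVD1* gave log2 -0.36 in Tfg1-HA and -0.43 in Tfg1-K60,61R-HA, *ERG26* gave -0.29 and -0.29, *ARE2* gave -0.40 and -0.51, and *ERG4* gave 0.20 and 0.24.

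The effect of *ubc9-6* against W303a was also set against the effect of Tfg1-K60,61R-HA against Tfg1-HA. The difference was not called for any member, where 3.22% of all genes were called higher and 2.86% lower. The smallest adjusted p was that of *ERG2* (0.0666), whose log2 effects were -0.16 in *ubc9-6* and 0.11 in Tfg1-K60,61R-HA, a difference of -0.27 ± 0.07. At an unadjusted p under 0.05 there were 3 members and 1354 of all genes. DESeq2 called *ERG2* alone among the members, as lower (adjusted p = 0.0255), beside 4.07% of all genes lower and 4.1% higher. The differences of single members moved when a library of Tfg1-K60,61R-HA was left out. Each of these fits keeps 1 library of that strain. Sizes are therefore given for members picked by their result there, and no call is read from them. Without replicate 1 the difference was log2 -0.32 for *ERG2*, -0.26 for *ERG10*, -0.27 for *ERG11* and 1.44 for *HES1*. Without replicate 2 it was 0.39 for *ERG5*, 0.35 for *ERG12*, 0.41 for *HMG1*, 0.32 for *ARE2*, -0.52 for *UPC2* and -0.35 for *ECM22*.

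Over the 4 strain means, 29 of the 32 genes (90.6%) stayed within a range of 0.5 on the log2 scale, where 78.5% of all genes did. The median range was 0.253 against 0.271 over all genes. The highest mean was in W303a for 12 genes and in *ubc9-6* for 12, and the lowest was in Tfg1-K60,61R-HA for 15. The Tfg1-K60,61R-HA means include replicate 1, in which 18 members were below all other libraries. These counts of highest and lowest means were not repeated without that library or set beside all genes. The 2 genes of HMG-CoA reductase, the controlled step of the mevalonate pathway, held different levels throughout. *HMG1* was at 387.9 and 426.6 CPM in W303a, 452.1 and 438.4 in *ubc9-6*, and 353.7 and 341.8 in Tfg1-HA, whereas *HMG2* was at 90.12 and 92.18, 95.05 and 96.06, and 89.72 and 94. The ratio of *HMG1* to *HMG2* per length was 4.267 and 4.588 in W303a, 4.716 and 4.525 in *ubc9-6*, 3.908 and 3.606 in Tfg1-HA, and 2.782 and 3.729 in Tfg1-K60,61R-HA. The tagged strains were below W303a at this ratio without overlap, and the lowest value was that of the library that stood apart. How often other pairs of genes separate in this way was not counted. *HMG1* itself was not called in Tfg1-HA against W303a and was called lower in Tfg1-K60,61R-HA against W303a. For the regulators, the ratio of *ECM22* to *UPC2* was 1.668 and 1.664 in W303a, 1.455 and 1.478 in *ubc9-6*, 1.861 and 1.74 in Tfg1-HA, and 1.407 and 1.611 in Tfg1-K60,61R-HA. These ratios are given as a description, and no test was run on them.

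The AR1-like letters shown above were counted beside the calls in Tfg1-HA, and a link between the letters and the calls was not tested. The letters were in the windows of 5 of the 14 genes that fell (*ERG7*, *ERG9*, *ERG11*, *ERG20* and *MVD1*), of both genes that rose (*ERG4* and *ARE1*) and of 2 of the 16 that were not called (*NCP1* and *CYB5*). The calls of *ERG9* and *ARE1* depended on single libraries, as given above. The sterol response element core was in 1 of the 14 that fell and 2 of the 16 not called. For the Hap1 letters these counts were 7 and 6, and for the Rox1 letters 4 and 3.

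Genes that border the pathway were counted from lists written with results of these data known, and their counts stand beside 21.5% of all genes called in each direction in Tfg1-HA, and 11.4% called higher and 9.36% lower in *ubc9-6*. Of 17 genes of sterol import, hydrolysis and transport, 7 rose and 2 fell in Tfg1-HA against W303a, and 1 rose in *ubc9-6*. Of 15 regulators of sterol and oxygen response, 3 rose and 4 fell in Tfg1-HA and 1 fell in *ubc9-6*. Of 8 heme synthesis genes 1 fell in each strain, and none of the 6 anaerobic cell wall genes measured was called in either. The counts of these lists come from the fit of all 8 libraries and were not repeated without the library that stood apart. In *ubc9-6* against W303a the SE was 2.9 for both *TIR1* (log2 1.13) and *DAN1* (log2 1.80). Of the 6 anaerobic genes, 4 had a log2 value above 0 there and 2 below. They are thus not shown to be unchanged. Of 11 genes for other uses of farnesyl diphosphate, 3 rose and 3 fell in Tfg1-HA, and 1 rose and 3 fell in *ubc9-6*. The one that rose in *ubc9-6* was *SRT1*, a gene for dolichol synthesis, at 0.8787 and 1.83 CPM in W303a and at 3.485 and 3.742 CPM in *ubc9-6* (log2 1.38, adjusted p = 0.0165).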

How the data were processed

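The members and lists were chosen with earlier results of these data known. The libraries were strand-specific and made from polyadenylated RNA. The authors deposited raw counts per gene, made with featureCounts (Subread 2.0.0) on the sacCer3 annotation without strand and without reads that map to several places or overlap several genes. Their processing notes also name HISAT2 2.1.0 and edgeR 3.32.1. Tables of the authors' own comparisons (fold changes and p-values) were not used.

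From the deposited counts, edgeR 4.0.16 (R 4.3.3) was run on all 8 libraries with TMM scaling, filterByExpr and a quasi-likelihood test for strain, and p-values were adjusted by Benjamini-Hochberg over the 5909 genes tested, with a threshold of 0.05. RPKM used the counted gene length. All members were named, and values per library were given for the members the results turn on. Of the related lists, genes called in *ubc9-6* or Tfg1-HA against W303a were named from a log2 fold change of 1 in size. Alternatives were DESeq2 1.42.0, a likelihood ratio test, other scalings and filters, a replicate block and fewer libraries. The code was tested on simulated data. Promoters came from the R64 genome and gene similarity from BLAST 2.17.0. Replicate libraries differed by more than counting error, with a chi-square per degree of freedom of 6.4 to 35.83. Protein sequences were not used here, and *DAN2* and *DAN3* were not analysed here.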

Additional observations from a re-analysis of the deposited data

How the results depend on the processing

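No fold change of a member changed direction in a comparison that called it, and neither did that of *HES1* in *ubc9-6* against W303a or against Tfg1-HA. Among the uncalled values given, *HES1* ran over the fits without 1 library from -0.413 (without Tfg1-K60,61R-HA replicate 1) to 1.093 in Tfg1-K60,61R-HA against its tagged control, from -0.232 (without the same library) to 1.273 against W303a, and from -0.06 (without Tfg1-K60,61R-HA replicate 2) to 1.439 in the difference of effects. In Tfg1-HA against W303a, *NCP1* (0.023 with all libraries) ran from -0.028 to 0.074 and was -0.001 with upper-quartile factors, and *ERG5* ran from -0.067 to 0.008. For *ubc9-6* against W303a, the members called higher were 0, and became 2 with only the 4 libraries compared, 1 without the Tfg1-K60,61R-HA libraries and 2 in the 7 libraries without the one that stood apart. Of all genes, 11.4% were called higher, and 18.7%, 16.4% and 16.3% in those smaller fits. The members called lower were 1, and became 3 with DESeq2 and 6 in each of those smaller fits. Of all genes, 9.36% were called lower, 8.77% with DESeq2, and 16.7%, 16.3% and 16.1% in the smaller fits. For Tfg1-HA against W303a the number called higher went from 2 to 4 without the Tfg1-K60,61R-HA libraries and in the 7 libraries. The share of all genes went from 21.5% to 25.6% and 25.7%. For *ubc9-6* against Tfg1-HA the number higher went from 11 to 17 with 4 libraries, 18 without the Tfg1-K60,61R-HA libraries and 17 in the 7, and the number lower from 3 to 5 in the last 2 fits. The shares of all genes went from 19.7% to 21.9%, 23.5% and 23.2% higher, and from 19.2% to 23.9% and 24.1% lower. The difference of effects gained 1 lower with DESeq2, where the share of all genes went from 2.86% to 4.07%. DESeq2 gave no adjusted p for *HES1* in that difference, nor for *HES1*, *CYB5*, *UPC2* and *ERG28* when both tagged strains were compared. The fits without 1 library gave 0 higher and 0 lower for *ubc9-6* against W303a, 1 higher and 3 to 12 lower for Tfg1-HA against W303a, 0 to 3 higher and 0 to 4 lower when both tagged strains were compared, 0 to 4 higher and 0 to 3 lower for the difference of effects, 4 higher and 1 to 3 lower for *ubc9-6* against Tfg1-HA, and 1 to 7 higher and 7 to 19 lower for Tfg1-K60,61R-HA against W303a. In the fits without 1 library the shares of all genes called moved as well. Except where a library was left out, the cause was not tested. The contrasts with *ubc9-6* against Tfg1-HA and Tfg1-K60,61R-HA against W303a, the fits without Tfg1-K60,61R-HA libraries and the crossed pairing were chosen after seeing the data.

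Deviations of same-numbered libraries correlated between -0.188 and 0.118 over all genes, and between -0.743 and 0.44 over the 32 genes. These values cannot settle whether same-numbered libraries were prepared together, because they read only shared deviations. With the replicate block, 0 members were called higher (all genes 10.4%) and 1 lower (8.36%) in *ubc9-6*, and 2 (21.1%) and 14 (20.9%) in Tfg1-HA. Tfg1-K60,61R-HA against Tfg1-HA gave 0 and 0 (0% and 0%), and the difference of effects 0 and 0 (2.49% and 1.79%). *ubc9-6* against Tfg1-HA gave 11 and 3 (19.1% and 18.3%), and Tfg1-K60,61R-HA against W303a 2 and 15 (24.3% and 23.9%). With the *ubc9-6* numbers crossed the block again called 0 and 1 (12.4% and 9.27%).

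Depth limited *HES1*, whose counts were 27 to 96 per library. With 2 libraries per strain, a member that was not called is not shown to be unchanged beyond the intervals given.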
